A study of Homo sapiens with 9 samples.

Results

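The Polycomb repressive complex genes EZH1, EZH2, EED, SUZ12, JARID2, PHF19, RNF2, BMI1, CBX2 and CBX7 were followed across 9 RNA-seq libraries of MIA PaCa-2 cells. They are 10 of the 58735 genes in the deposited count table and were taken by gene name. MIA PaCa-2, an established line of human pancreatic cancer cells, has its genotype labelled WT. All cells were treated for 24 h, with 0.1% DMSO as the vehicle, with 1 μM SCH772984, which inhibits the kinases ERK1/2, or with 1 μM compound 1, which inhibits the kinases TBK1 and IKKε (n = 3 libraries each). The labels do not say whether the libraries of a group came from separate cultures, so p-values measure only the spread between these libraries, which may be technical. All 10 genes had enough counts to be tested in every comparison.

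Polycomb proteins keep genes silent through marks on histones. Polycomb repressive complex 2 (PRC2) methylates lysine 27 of histone H3 through EZH2 or its paralog EZH1, which act only together with EED and SUZ12, and accessory subunits such as JARID2 and PHF19 direct the complex to chromatin. Polycomb repressive complex 1 (PRC1) ubiquitinates histone H2A through RING proteins such as RNF2, paired with a PCGF protein such as BMI1, and its CBX subunits bind the mark that PRC2 makes. In many tissues EZH2 is made mainly by dividing cells and EZH1 is also found in resting cells, and EZH2 is often abundant in tumors.

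EZH1 and EZH2 are similar proteins, so it matters that their reads can be told apart. Among the coding transcripts of GENCODE release 29 (9 of EZH1 and 6 of EZH2), the longest run of bases shared by both genes was 20 bases, and no stretch of 100 bases of either gene was found in another gene. The shared run lies in exon 14 of 21 of EZH1 transcript ENST00000428826.6 (chr17:42708896-42708915, minus strand, GRCh38) and in exon 13 of 20 of EZH2 transcript ENST00000320356.6 (chr7:148815526-148815545, minus strand), in the coding sequence of both. It is shown because it is the longest stretch that these coding transcripts have in common.
EZH1 and EZH2 shared run: ttgtgggctgcacactgcag

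The promoters of the genes were also searched for binding motifs of factors known from cell cycle and growth signaling. RefSeq (GRCh38.p14) gave windows of 300 bases, from 250 before to 50 after a start site, for 9 of the 10 genes, and CBX2 was not matched. Both strands were searched for the E2F motifs TTTGGCGC, TTTCGCGC, TTTCCCGC and TTTGGCGG, the CHR motif TTTGAA, the ETS motif CCGGAAGT, the AP-1 motif TGACTCA and the CRE motif TGACGTCA. None of these matches overlapped another. An E2F motif was present in 4 of the 9 genes (EZH1, EZH2, SUZ12 and PHF19), against 4.05% of all 27305 genes with a window. A CRE motif was present in JARID2, with 2 copies, against 2.25% of all genes, and a CHR motif in SUZ12, against 18.2%. The ETS and AP-1 motifs were in none of the 9 genes and in 4.95% and 6.05% of all genes. The stretches around the E2F and CRE motifs are shown 5′ to 3′ on the strand of the gene, with the motif in capitals, because these 4 E2F genes include 1 that rose and 3 that fell with ERK inhibition, and JARID2 rose as well. A match describes these letters only and is not a measured binding site. The EZH1 stretch (chr17:42745122-42745189, minus strand) and the SUZ12 stretch (chr17:31936788-31936855, plus strand) lie upstream of the annotated gene. The EZH2 stretch (chr7:148884283-148884312, minus strand) lies in a first exon, the PHF19 stretch (chr9:120877303-120877370, minus strand) spans the start of an internal first exon, with its motif on the reverse strand, and the JARID2 stretch (chr6:15248714-15248830, plus strand) lies in an intron before an internal start site.
EZH2: cgatggcgattgggctgccgcgTTTGGCGC
EZH1: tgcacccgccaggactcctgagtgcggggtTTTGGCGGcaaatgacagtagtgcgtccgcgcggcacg
SUZ12: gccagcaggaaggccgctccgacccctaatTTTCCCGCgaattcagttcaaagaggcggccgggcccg
PHF19: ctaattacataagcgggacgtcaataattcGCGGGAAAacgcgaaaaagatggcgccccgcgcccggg
JARID2: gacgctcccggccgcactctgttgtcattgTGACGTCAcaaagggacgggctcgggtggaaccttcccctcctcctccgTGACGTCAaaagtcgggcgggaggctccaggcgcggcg

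Library totals were 9464432 to 13887859 counts and were highest with SCH772984. Levels are given as CPM (read counts scaled to a common library size after TMM normalization over the 9 libraries), and per kb of exon where genes are compared with each other. Each pair of groups was tested with edgeR's quasi-likelihood test over all genes with enough counts, and a gene was called at a Benjamini-Hochberg adjusted p under 0.05. Both of the following features of the libraries touch the results. Mitochondrially encoded genes took 6.23% to 7.52% of the counts with SCH772984 and 3.33% to 3.98% in the other 6 libraries, and scaling by library size alone moved the median log2 fold change over all tested genes up by 0.17 against DMSO. Replicate 1 of compound 1 stood apart from replicates 2 and 3, with a chi-square of its counts per degree of freedom of 11.1 and 8.29 against 2.78 between those 2. The same measure was 4.3, 7.0 and 5.4 between SCH772984 libraries and 2.4, 3.3 and 2.5 between DMSO libraries. Of the genes listed as pancreatic cancer cell markers, KRT8, KRT18, KRT19 and VIM had counts in all libraries, whereas EPCAM had 0 counts in all 9 libraries. The summed level of that list was 5874 to 6248 CPM with DMSO and 3212 to 3517 CPM with SCH772984. Much of it was VIM (2476 ± 91.2 and 2117 ± 178 CPM, SD, n = 3). KRT18 (log2 fold change -2.40), KRT8 (-1.69) and VIM (-0.23) were lower with SCH772984 in edgeR, and KRT19 (0.11) was not called. Fibroblast markers had a summed level of 465 to 515 CPM with DMSO and 1034 to 1173 CPM with SCH772984, nearly all of it COL1A2 (482 ± 24.4 and 1039 ± 66.9 CPM, SD, n = 3). Of that list of 6 genes, 4 were tested and higher with SCH772984, as were 37.2% of all genes, and DCN and LUM had 0 or 1 count in every library. COL1A1 had 4, 1 and 2 counts with DMSO and 29, 28 and 48 with SCH772984, and PDGFRB 0, 0 and 2 against 82, 64 and 99. Both had enough counts for a test only through SCH772984, so their direction was set by that requirement. Of 5 leukocyte markers PTPRC and CD3E had 0 counts in all 9 libraries, and the list summed to 2.36 to 3.06 CPM with DMSO and 0.844 to 1.48 CPM with SCH772984, where CD14, the one tested, was lower (log2 fold change -1.29, edgeR adjusted p = 0.000955). The 3 endothelial markers summed to 2.87 to 4.49 CPM with DMSO and 0 to 0.537 CPM with SCH772984, where CDH5, the one tested, was lower (-4.79). With 28, 40 and 39 counts with DMSO and 0, 1 and 4 with SCH772984, CDH5 had enough counts only through DMSO. Its direction was likewise set by that requirement. The part of these marker shifts in the Polycomb results was not tested. The libraries are of the MIA PaCa-2 line alone, and bulk RNA cannot tell a change in some of its cells from a change in all.

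ERK inhibition lowered most of the PRC2 genes and raised 2 of them. With SCH772984, 6 of the 10 genes fell against DMSO (EZH2, EED, SUZ12, PHF19, BMI1 and CBX2), EZH1 and JARID2 rose, and RNF2 and CBX7 were not called. These 8 genes are 80% of the 10, near the background, since 72.8% of all 13834 genes tested were called in this comparison, 35.5% lower and 37.2% higher. At an unadjusted p the same 8 genes passed, against 74.3% of all genes, 36.2% lower and 38.0% higher. With scaling by library size alone, 28.3% of all genes were lower and 45.1% higher. The median log2 fold change was -0.55 over the 10 genes and 0.03 over all genes. The SCH772984 and DMSO libraries did not overlap for 8 of the 10 genes, and for 74.3% of all genes. A change of at least 2-fold was reached by PHF19 and JARID2. EZH1, at a log2 fold change of 0.96, also passed it with library size alone (1.13), with protein-coding genes alone (1.005), without SCH772984 replicate 1 (1.04) and where each library had to hold at least 10 counts (1.04).

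**Figure D1:**
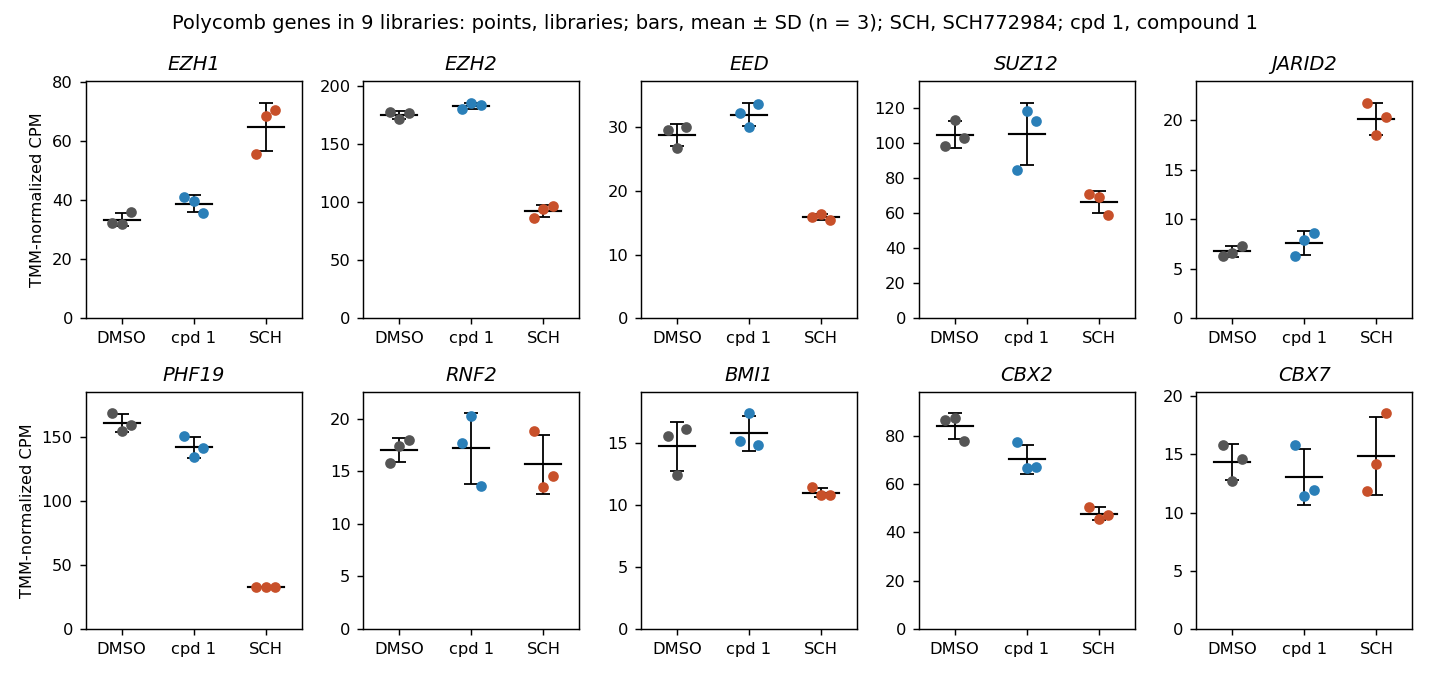
TMM-normalized CPM (linear axis from 0, 1 panel per gene) of the 10 Polycomb genes in 3 DMSO, 3 compound 1 (cpd 1) and 3 SCH772984 (SCH) libraries, as points, with bars for the mean and SD. The SCH772984 points lie below all other points for EZH2, EED, SUZ12, PHF19, BMI1 and CBX2 and above them for EZH1 and JARID2.

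EZH2, the main H3K27 methyltransferase of dividing cells, was the most abundant of the 10 genes per kb in all 3 groups. It measured 178, 171 and 176 CPM with DMSO, 180, 185 and 184 CPM with compound 1, and 86.3, 94.3 and 96.4 CPM with SCH772984. All 3 SCH772984 libraries were far below the other 6, and the compound 1 libraries lay just above the DMSO libraries without overlap. EZH2 fell by 0.93 on the log2 scale with SCH772984 (SE 0.07, 1.90-fold lower, edgeR adjusted p = 1.24e-16). Against compound 1 it was lower by a similar amount (log2 fold change -0.99, SE 0.08, adjusted p = 2.40e-09). With compound 1 the change against DMSO was 0.07, with a 95% confidence interval of -0.07 to 0.21 (edgeR, adjusted p = 0.688).

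EZH1, the paralog that can take the place of EZH2 in the complex, moved the other way. It measured 32.2, 32.0 and 35.8 CPM with DMSO, 41.1, 39.7 and 35.6 CPM with compound 1, and 55.5, 68.5 and 70.6 CPM with SCH772984. The SCH772984 libraries were above all others, and replicate 1 was the lowest of them. EZH1 rose by 0.96 on the log2 scale against DMSO (SE 0.09, 1.94-fold, edgeR adjusted p = 1.13e-12) and by 0.74 against compound 1 (SE 0.11, adjusted p = 4.74e-06). With compound 1 its change was 0.22 (95% confidence interval 0.01 to 0.43), and this did not pass after adjustment (edgeR, adjusted p = 0.304).

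The balance of the 2 methyltransferase genes was measured as the ratio of EZH2 to EZH1 counts per kb within each library, which does not depend on library size. Its size does depend on the exon lengths used, 4522 bases for EZH2 and 6988 for EZH1. The ratio of plain counts was 4.93 to 5.53 with DMSO, 4.38 to 5.16 with compound 1 and 1.37 to 1.55 with SCH772984. Fold differences of the ratio between groups do not depend on these lengths. EZH2 exceeded EZH1 by 8.54, 8.26 and 7.61 times in the DMSO libraries and by 6.77, 7.21 and 7.97 times with compound 1, but by only 2.40, 2.13 and 2.11 times with SCH772984. The SCH772984 ratios did not approach those of the other 6 libraries, while those of DMSO and compound 1 overlapped. The mean log2 ratio was 3.02 ± 0.09 with DMSO, 2.87 ± 0.12 with compound 1 and 1.14 ± 0.10 with SCH772984 (SD, n = 3 each). The ratio was 3.68-fold smaller with SCH772984 than with DMSO (difference in log2 ratio -1.88, SE 0.08; two-sided exact permutation test, p = 0.10, adjusted p = 0.15 over 3 pairs of groups). Against compound 1 the difference was -1.72 (SE 0.09, exact permutation p = 0.10, adjusted p = 0.15). Between compound 1 and DMSO it was -0.16 (SE 0.08, exact permutation p = 0.20, adjusted p = 0.20). With 3 libraries against 3 the smallest p this test can give is 0.10, so it cannot pass 0.05.

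The summed RNA of both genes was lower in every SCH772984 library than in any other library. The sum was 43.5 ± 0.914 CPM per kb with DMSO, 46.0 ± 0.504 with compound 1 and 29.7 ± 2.34 with SCH772984 (SD, n = 3). EZH1 made up 11.0% ± 0.582 of that sum with DMSO, 12.1% ± 0.871 with compound 1 and 31.2% ± 1.53 with SCH772984.

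**Figure D2:**
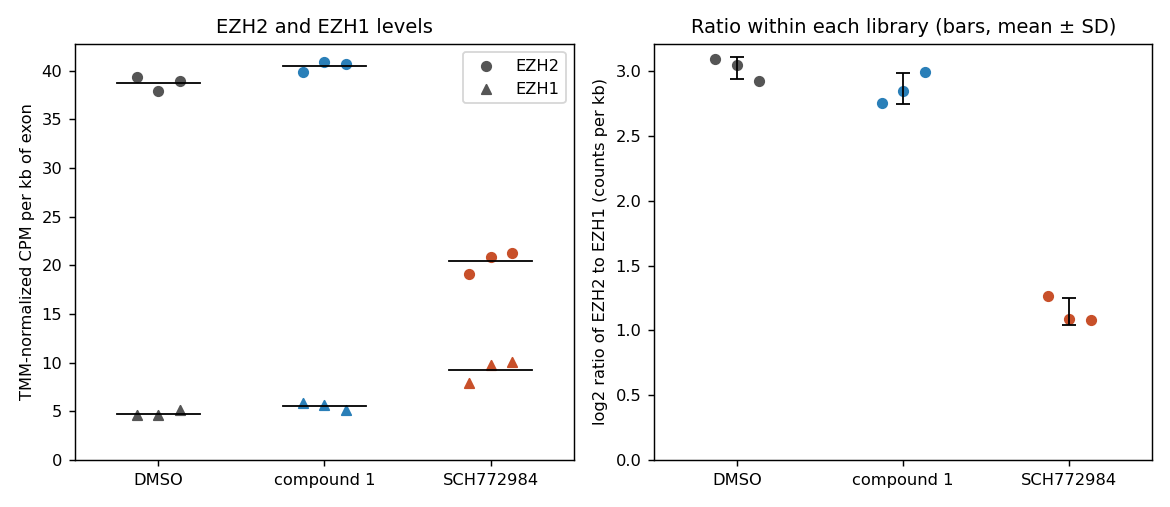
EZH2 (circles) and EZH1 (triangles) in TMM-normalized CPM per kb of exon on the left, with lines at the mean of 3 libraries, and the log2 ratio of EZH2 to EZH1 within each library on the right, with bars for the mean and SD. The SCH772984 ratios lie near 1.14, below the DMSO mean of 3.02 and the compound 1 mean of 2.87.

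The 2 scaffold genes of PRC2 fell with EZH2. EED, which binds methylated H3K27 and activates the enzyme, measured 29.5, 26.7 and 30.0 CPM with DMSO, 32.3, 30.0 and 33.7 CPM with compound 1, and 16.0, 16.4 and 15.4 CPM with SCH772984. Its SCH772984 libraries were close together and well below the rest. EED fell by 0.86 against DMSO (log2, SE 0.11, edgeR adjusted p = 5.23e-09) and was also lower than with compound 1 (log2 fold change -1.01, SE 0.12, adjusted p = 2.23e-07).

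SUZ12, which holds the PRC2 core together, measured 98.1, 113 and 103 CPM with DMSO, 84.5, 118 and 112 CPM with compound 1, and 70.6, 69.2 and 58.9 CPM with SCH772984. The SCH772984 libraries were the lowest, as for EED, but compound 1 replicate 1 lay between the DMSO and the SCH772984 libraries. SUZ12 fell by 0.67 against DMSO (log2, SE 0.08, edgeR adjusted p = 2.01e-10) and by 0.67 against compound 1 (SE 0.12, adjusted p = 4.35e-05). Part of SUZ12 is copied in the pseudogene SUZ12P1, with which 2.59% of its 100-base stretches are shared, so a small part of its count is uncertain.

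The 2 accessory PRC2 genes moved furthest, in opposite directions. PHF19, a Polycomb-like protein that binds H3K36 methylation and helps PRC2 to reach chromatin, measured 169, 155 and 160 CPM with DMSO, 151, 135 and 141 CPM with compound 1, and 32.9, 32.6 and 32.9 CPM with SCH772984. The SCH772984 libraries were nearly identical, and the compound 1 libraries were all just below the DMSO libraries. PHF19 fell by 2.30 on the log2 scale against DMSO (SE 0.07, 4.93-fold lower, edgeR adjusted p = 3.55e-29), and 5.60% of all genes tested changed by more in either direction. Against compound 1 it fell by 2.12 (SE 0.09, adjusted p = 1.06e-13).

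JARID2, a DNA-binding subunit that recruits PRC2 and stimulates it, was the scarcest of the 10 genes per kb with DMSO. It measured 6.25, 6.63 and 7.33 CPM with DMSO, 6.24, 7.94 and 8.63 CPM with compound 1, and 21.7, 18.5 and 20.3 CPM with SCH772984. Every SCH772984 library was above every other library, and the DMSO and compound 1 libraries overlapped. JARID2 rose 2.98-fold against DMSO (log2 fold change 1.58, SE 0.15, edgeR adjusted p = 5.84e-13) and 2.65-fold against compound 1 (1.40, SE 0.16, adjusted p = 1.09e-07).

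Of the 4 PRC1 genes, BMI1 and CBX2 fell with SCH772984 against DMSO, and RNF2 and CBX7 were not called. RNF2, the E3 ligase for H2A, measured 15.8, 17.4 and 18.0 CPM with DMSO, 17.7, 20.3 and 13.6 CPM with compound 1, and 18.9, 13.5 and 14.6 CPM with SCH772984, and all 3 groups overlapped. Its log2 fold change with SCH772984 against DMSO was -0.13 (95% confidence interval -0.41 to 0.14, edgeR adjusted p = 0.389), and the sign turned to 0.04 with scaling by library size alone.

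BMI1, the PCGF partner that is best known for repressing the CDKN2A locus, measured 15.6, 12.5 and 16.2 CPM with DMSO, 15.2, 17.4 and 14.9 CPM with compound 1, and 11.5, 10.8 and 10.8 CPM with SCH772984. The SCH772984 libraries were the lowest of the 9, with DMSO replicate 2 close above them. BMI1 fell by 0.43 against DMSO (log2, SE 0.14, edgeR adjusted p = 0.00765) and by 0.52 against compound 1 (SE 0.14, adjusted p = 0.00314). The first call was lost with scaling by library size alone (log2 fold change -0.25, edgeR adjusted p = 0.112). BMI1 shares 1000 exon bases, 23.4% of its exon length, with the readthrough gene COMMD3-BMI1 on the same strand, so its count is uncertain.

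CBX2 and CBX7 are alternative CBX subunits of canonical PRC1. CBX2 measured 86.6, 87.7 and 77.8 CPM with DMSO, 77.4, 66.6 and 67.0 CPM with compound 1, and 50.6, 45.4 and 47.1 CPM with SCH772984. The 3 groups did not overlap, although compound 1 replicate 1 was close to the lowest DMSO library. CBX2 fell by 0.82 with SCH772984 against DMSO (log2, SE 0.08, edgeR adjusted p = 8.13e-13) and by 0.56 against compound 1 (SE 0.10, adjusted p = 4.45e-05).

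CBX7 measured 15.8, 12.7 and 14.6 CPM with DMSO, 15.8, 11.4 and 12.0 CPM with compound 1, and 11.9, 14.2 and 18.5 CPM with SCH772984. All 3 groups overlapped, and the SCH772984 libraries spread widest. Its log2 fold change against DMSO was 0.05 (95% confidence interval -0.25 to 0.35, edgeR adjusted p = 0.759). CBX7 shares 21.6% of its exon bases with 2 overlapping genes, one of them on the opposite strand, and its count is uncertain because the strand setting of the counting is not given in the sources used here.

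**Figure D3:**
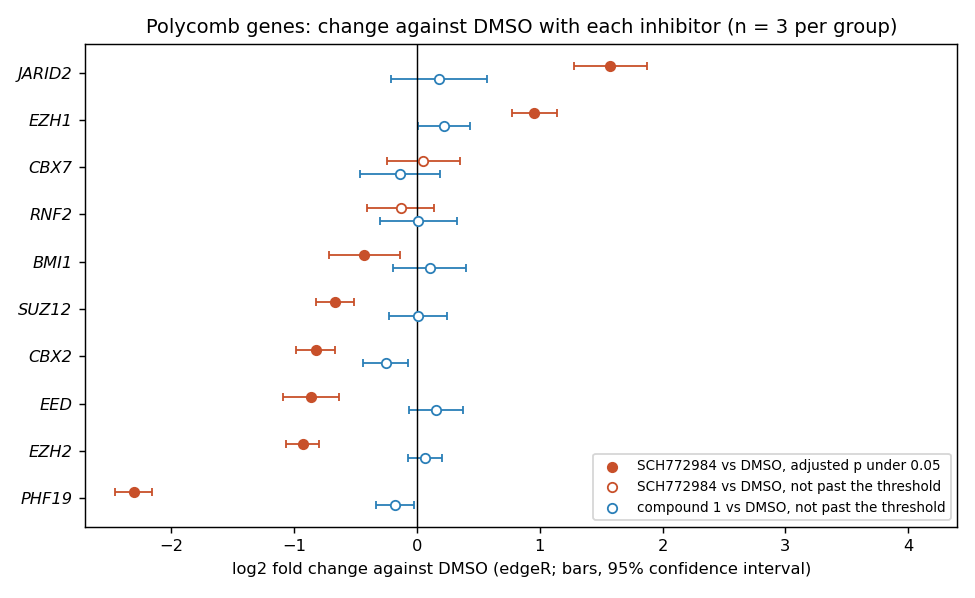
Log2 fold change against DMSO of the 10 genes with SCH772984 (orange) and compound 1 (blue), from edgeR, with 95% confidence intervals. Filled points passed an adjusted p of 0.05. PHF19 lies lowest at -2.30 and JARID2 highest at 1.58 with SCH772984, and all compound 1 points lie between -0.25 and 0.22.

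With compound 1, none of the 10 genes passed an adjusted p of 0.05 against DMSO in edgeR, where 0.864% of all 12849 genes tested were called, 0.374% lower and 0.490% higher, and DESeq2 called 0 as well. At an unadjusted p under 0.05 in edgeR, CBX2 (log2 fold change -0.25, adjusted p = 0.172) and PHF19 (-0.18, adjusted p = 0.249) were lower and EZH1 (0.22, adjusted p = 0.304) was higher, and 15.0% of all genes passed that threshold, 7.69% lower and 7.35% higher. The compound 1 and DMSO libraries did not overlap for 3 of the 10 genes (EZH2, PHF19 and CBX2), and for 20.9% of all genes. Without compound 1 replicate 1, the library that stood apart, CBX2 (-0.33, edgeR adjusted p = 0.00309) and PHF19 (-0.22, adjusted p = 0.0154) were called lower, and 9.56% of all genes were called. Apart from CBX2, PHF19 and EZH1, the largest change in the full set was 0.18, for JARID2, with an interval of -0.21 to 0.57.

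In the direct comparison of the inhibitors, which uses the same SCH772984 libraries, EZH2, EED, SUZ12, PHF19, BMI1 and CBX2 were lower and EZH1 and JARID2 higher with SCH772984 than with compound 1. In all, 66.3% of 13863 genes were called, 32.6% lower and 33.7% higher. At an unadjusted p the same 8 genes passed, against 69.0% of all genes, 33.8% lower and 35.2% higher. RNF2 (log2 fold change -0.14, edgeR adjusted p = 0.476) and CBX7 (0.20, adjusted p = 0.320) were again not called.

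The order of the genes per kb changed with ERK inhibition. With DMSO, EZH2 led at 38.7 CPM per kb, followed by PHF19 at 23.9, SUZ12 at 16.0, CBX2 at 14.8, EZH1 at 4.77, RNF2 at 4.19, EED at 4.10, BMI1 at 3.44, CBX7 at 1.92 and JARID2 at 1.12. Of neighbors in that order, SUZ12 and CBX2 overlapped between libraries, as did RNF2 and EED. With SCH772984, EZH2 still led at 20.4 CPM per kb, ahead of SUZ12 at 10.1, EZH1 at 9.28, CBX2 at 8.39, PHF19 at 4.87, RNF2 at 3.84, JARID2 at 3.35, BMI1 at 2.57, EED at 2.27 and CBX7 at 1.99. EZH1 overlapped with both SUZ12 and CBX2 there, RNF2 with JARID2, and EED with CBX7. PHF19 thus went from the second to the fifth place and EZH1 from the fifth to the third. With compound 1 the order was that of DMSO except that EED (4.56) and RNF2 (4.22), which overlapped, changed places.

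Other Polycomb genes were counted from lists of 48 partners, of which 44 were tested. With SCH772984 against DMSO, 22 fell, 14 rose and 8 were not called in edgeR, with a median log2 fold change of -0.21. As shares, 81.8% of the 44 were called, 50% lower and 31.8% higher, against 72.8%, 35.5% and 37.2% of all genes, which also stand as the background for the lists in that comparison. With scaling by library size alone, 19 were lower and 15 higher, and 1 of the 36 called genes changed sign. In the direct comparison with compound 1, 20 were lower and 11 higher, against 32.6% and 33.7% of all genes. These became 16 and 15 with that scaling, against 26.9% and 39.9% of all genes. EZHIP, ASXL3 and KDM6A had 0 counts in all 9 libraries, where 3 counts correspond to 0.216 to 0.317 CPM, and AUTS2 had too few counts for a test.

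Among the PRC2 partners, 5 of 8 tested genes fell and 0 rose. The largest change there was that of EPOP, an elongin-binding PRC2 subunit, which fell from 71.9 ± 10.9 CPM to 29.1 ± 0.0775 CPM (SD, n = 3; log2 fold change -1.31, SE 0.09, edgeR adjusted p = 9.41e-17). The RING and PCGF genes split, with 2 lower and 4 higher of 6. PCGF2, the closest relative of BMI1, fell from 41.9 ± 1.37 to 18.0 ± 0.683 CPM (log2 fold change -1.22, SE 0.10, edgeR adjusted p = 6.88e-15).

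Of the canonical PRC1 partners, 3 fell, 4 rose and 1 was not called. The polyhomeotic genes, whose proteins polymerize and compact chromatin, went both ways. PHC1 measured 7.79, 5.74 and 8.87 CPM with DMSO and 20.0, 20.3 and 22.6 CPM with SCH772984 (log2 fold change 1.49, SE 0.15, edgeR adjusted p = 4.83e-12). PHC2, which was the more abundant, measured 99.2, 106 and 98.6 CPM with DMSO and 45.3, 45.3 and 48.7 CPM with SCH772984 (log2 fold change -1.13, SE 0.08, adjusted p = 7.65e-18). Neither pair of groups overlapped.

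Among partners of variant PRC1, 8 of 12 tested genes fell and 1 rose. The one that rose was BCORL1, a corepressor related to BCOR, from 24.9 ± 2.45 to 68.2 ± 7.76 CPM (log2 fold change 1.45, SE 0.09, edgeR adjusted p = 6.95e-18). FBRSL1 fell from 102 ± 6.29 to 42.4 ± 4.55 CPM (log2 fold change -1.27, SE 0.08, adjusted p = 1.24e-18).

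The complex that removes ubiquitin from H2A, and so opposes PRC1, had 4 lower and 4 higher of 9 tested genes. ASXL1, the partner that activates the deubiquitinase BAP1, rose from 147 ± 6.04 to 289 ± 4.23 CPM (log2 fold change 0.97, SE 0.06, edgeR adjusted p = 3.03e-18), and MBD5 rose from 12.0 ± 0.893 to 20.1 ± 2.03 CPM (0.74, SE 0.13, adjusted p = 3.78e-06). Against compound 1 the log2 fold changes were 1.17 for ASXL1 and 1.04 for MBD5. HCFC1, a chromatin cofactor bound to BAP1, fell from 283 ± 10.8 to 141 ± 4.90 CPM (log2 fold change -1.01, SE 0.06, edgeR adjusted p = 7.73e-19). KDM6B, a demethylase that removes the mark of PRC2, rose from 15.7 ± 1.62 to 42.7 ± 1.70 CPM (log2 fold change 1.44, SE 0.10, edgeR adjusted p = 1.69e-16).

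**Figure D4:**
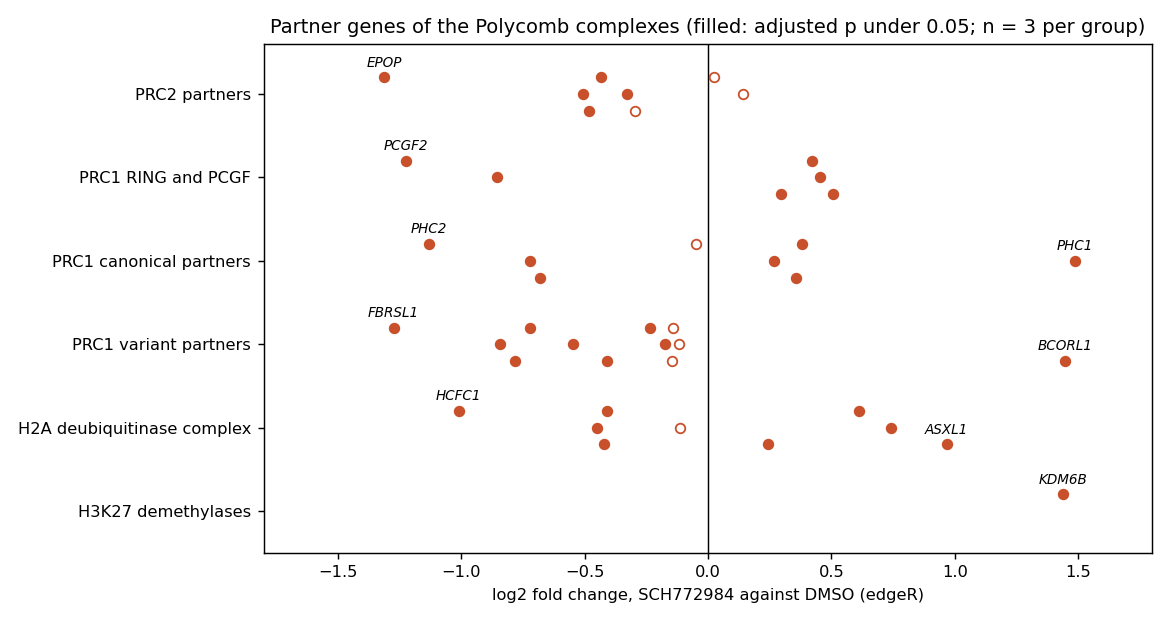
Log2 fold change of the 44 tested partner genes with SCH772984 against DMSO, from edgeR, in 6 lists (rows, with points offset vertically only to separate them). Filled points passed an adjusted p of 0.05, and genes past about 1 on either side are named. The PRC2 partners lie at or below 0.14, KDM6B is the tested H3K27 demethylase gene, and the other 4 lists hold points on both sides of 0.

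With compound 1, 1 of the 44 partners was called, and it was lower, against 0.864% of all genes called and 0.374% lower. HCFC1 measured 273, 283 and 294 CPM with DMSO and 214, 233 and 233 CPM with compound 1, without overlap (log2 fold change -0.32, SE 0.07, edgeR adjusted p = 0.0453). At an unadjusted p, 10 of the 44 partners were lower, against 7.69% of all genes, and 1 was higher, against 7.35%, the latter OGT (log2 fold change 0.38, edgeR adjusted p = 0.204), which was picked out after its value was seen. Without any single DMSO library, or without compound 1 replicate 2 or 3, 0 partners were called, and without compound 1 replicate 1, 5 of 44 were, when 9.56% of all genes were called. The HCFC1 call was also lost with scaling by library size alone. With that scaling 0 partners were lower and 0 higher, against 0.195% and 0.662% of all genes.

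The HOX genes are silenced by Polycomb in many cell types. Of 39 HOX genes, 15 were tested with SCH772984 against DMSO, and 6 fell and 6 rose, a split that scaling by library size alone changed to 6 and 7. These 12 are 80% of those tested, near the 72.8% of all genes. All 6 that fell are in the HOXB cluster: HOXB2 (log2 fold change -1.47), HOXB5 (-0.82), HOXB6 (-0.85), HOXB7 (-0.67), HOXB8 (-0.88) and HOXB9 (-1.38). HOXB3 (0.49), HOXB4 (0.81) and HOXB13 (1.52) of the same cluster rose, as did HOXA13 (1.69), HOXC6 (1.33) and HOXC8 (0.91). HOXA2, HOXA3 and HOXA11 were tested and not called. HOXB9 measured 96.1, 83.7 and 79.5 CPM with DMSO and 32.8, 33.1 and 34.2 CPM with SCH772984. HOXB13 measured 9.02, 8.06 and 7.77 CPM with DMSO and 24.1, 20.5 and 27.1 CPM with SCH772984, also without overlap. With compound 1, 0 of 14 tested HOX genes were called in edgeR, and 1 passed at an unadjusted p under 0.05, against 0.864% and 15.0% of all genes.

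**Figure D5:**
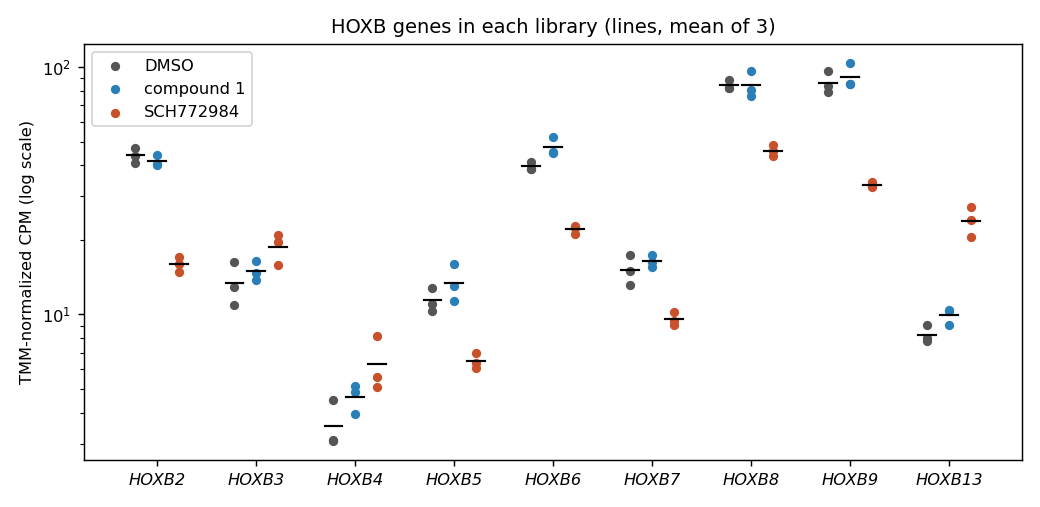
TMM-normalized CPM (log axis) of the 9 HOXB genes with an average of at least 1 CPM in a group, in 3 libraries per group, with lines at the mean. The SCH772984 points lie below the DMSO points for HOXB2 and for HOXB5 to HOXB9 and above them for HOXB4 and HOXB13, while those of HOXB3 overlap with DMSO.

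Of the CDK inhibitor genes that Polycomb is known to repress, CDKN2A and CDKN2B had 0 counts in all 9 libraries. These counts of 0 do not show repression by Polycomb, and what lies behind them was not tested. CDKN1C had 18, 14 and 10 counts with DMSO, 14, 13 and 12 with compound 1, and 69, 89 and 132 with SCH772984, and rose against DMSO (log2 fold change 2.29, SE 0.26, edgeR adjusted p = 1.99e-10).

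Cell cycle genes moved in the same comparison as the EZH2 group. All 20 genes of a cell cycle list fell with SCH772984 (median log2 fold change -1.89, range -2.66 to -1.25), and their summed level went from 6977 to 7055 CPM with DMSO to 1809 to 1896 CPM. With compound 1, 1 of these 20 genes was lower, against 0.374% of all genes, and the median was -0.11. Of 14 tested genes that report ERK output, 13 fell with SCH772984, with a median of -3.52. The part of cell cycle state in the Polycomb results was not tested.

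As a description of which genes behaved most like the 2 methyltransferase genes, log2 CPM was correlated with that of 9949 protein-coding genes over the 9 libraries. The genes closest to EZH2 were CDK1 (Pearson's r 0.998), BLM, FUCA2, IQGAP3 and NASP (down to 0.997), and those closest to EZH1 were CCDC84 (0.994), F11R, TCTN1, RFXANK and PDIA2 (down to 0.990). The libraries fall into an SCH772984 group and the other 6, so many genes share such a pattern. In all, 1786 genes had an r above 0.95 with EZH2 and 421 with EZH1.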

How the data were processed

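RNA was measured in 9 MIA PaCa-2 libraries, 3 per group, grouped by their labels. The authors deposited read counts per gene, not normalized, which per the submitters' processing notes came from HISAT2 2.0.5 and featureCounts 1.5.0-p3 on hg38. The strand setting is not given in the sources used here. All 58735 names matched GENCODE release 29 (58690 positions matched). Library totals of 9464432 to 13887859 counts set the precision, which the standard errors include. The 10 genes and all lists were chosen with earlier results of these data known.

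Each pair of groups was fitted alone with edgeR 4.0.16 in R 4.3.3 (robust quasi-likelihood, TMM, filterByExpr with a minimum count of 10 and a minimum total of 15), with Benjamini-Hochberg adjustment over all genes tested. The scripts were tested on simulated data. Standard errors came from the log2 fold change and F, and intervals are at 95%. CPM per kb used the exon length in the table. All 10 genes are named, as are partners called with an absolute log2 fold change of at least 1 in any comparison, HOX genes of at least 1 CPM in a group, and the 5 protein-coding genes of at least 5 CPM most like EZH2 and EZH1. The cell cycle and ERK output genes are given by counts and medians. Alternatives were library size alone, RLE factors, other filters, an unadjusted p, a 2-fold threshold, protein-coding genes alone, a fit of all libraries together, a block for the replicate number, DESeq2 1.42.0 and leaving out each library. Leaving out mitochondrially encoded genes was chosen after seeing the data. Protein sequences were not used here. Some items that these rules would name are not reported here.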

Additional observations from a re-analysis of the deposited data

How the results depend on the processing

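Changes of the 10 Polycomb genes with SCH772984 kept their direction wherever they were called. Requiring a 2-fold change left 1 lower and 1 higher of the 10 genes against DMSO, and 2 lower and 1 higher against compound 1. It left 5 lower and 3 higher of the partners against DMSO, and 3 lower and 5 higher against compound 1. Leaving out each library in turn kept 6 lower and 2 higher of the 10 genes in both comparisons. With compound 1 against DMSO, an unadjusted p gave 2 lower and 1 higher of the 10 genes, and leaving out libraries gave 0 to 2 lower (2 without compound 1 replicate 1). For the partners in that comparison, where 1 was lower, the count was 10 at an unadjusted p, 4 without a filter, 4 with the replicate number as a block, 0 with a 2-fold change, library size alone or protein-coding genes only, and 0 to 5 with libraries left out. Higher partners numbered 1 at an unadjusted p and 1 without a filter. The share of all genes called with SCH772984 was 28.8% with a 2-fold change and 39.2% without a filter against DMSO, and 26.6% and 34.0% against compound 1. With compound 1 against DMSO it was 15.0% at an unadjusted p, 0.0467% with a 2-fold change, 1.61% without a filter, 1.35% with all libraries in one fit, 3.21% with the block, 1.60% with DESeq2 and 0.0608% to 9.56% with libraries left out. Those without a filter test more genes.

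Same-numbered libraries did not deviate together (correlations of -0.08 to 0.11 over genes), so the numbers were not taken to pair the samples. The block changed no call of the 10 genes. The log2 ratio of EZH2 to EZH1 kept its value, with exact paired p = 0.25 against DMSO for SCH772984, 0.50 for compound 1 and 0.25 between the inhibitors, where 3 pairs cannot give less than 0.25. With libraries left out it ranged from -1.94 to -1.84, from -0.22 to -0.10 and from -1.78 to -1.66. Standard errors with SCH772984 against DMSO were 0.14 to 0.15 for RNF2, BMI1, CBX7 and JARID2, the 4 genes with the lowest CPM with DMSO, and smaller for the other 6.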
